A study of Homo sapiens with 32 samples.

Results

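The MLL and SET1 genes KMT2A, KMT2B, KMT2C, KMT2D, SETD1A and SETD1B encode the 6 enzymes of the COMPASS family, which methylate lysine 4 of histone H3. Their m6A peaks (N6-methyladenosine, a base mark on RNA) were examined in PANC-1 cells, a long-established line from a human pancreatic ductal carcinoma. All peaks of 3 deposited lists that overlapped the hg19 intervals of these genes by at least 1 base were taken. That gave 431 of 424904 peaks. The lists belong to control cells (genotype label Control), cells labelled KO CFL1 and cells labelled KO METTL3, each with 2 antibody samples and 2 inputs. CFL1 encodes cofilin 1, an actin-severing protein, and METTL3 the catalytic subunit of the main m6A methyltransferase. All were PANC-1 total RNA with no other allele or agent in their labels. The sources used here do not give how the knockouts were made or whether each is 1 clone. The peak names of the knockout libraries carry the letters si, and what these stand for was not settled here. The word knockout therefore follows the labels only. The knockout groups are called CFL1-KO and METTL3-KO.

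Each list joins the separately called peaks of 2 libraries, which are named here by the number in the peak names: control 1, control 2, CFL1-KO 3, CFL1-KO 5, METTL3-KO 3 and METTL3-KO 5. The labels do not tie the 2 libraries of a group to separate cultures, so their spread may be technical. Libraries held 63859 to 79467 peaks, and their read depth is unknown. Peaks with a −log10 q under 10 (q being the peak's adjusted p as the authors' caller gave it) made up 58.2% and 58.3% of control libraries but 46.5% to 51.3% of knockout libraries. Input RNA levels were not examined, so in these bulk samples a change in methylation, in RNA per cell or in the mix of cells cannot be told apart. Peak lists do not show whether either knocked-out protein was absent.

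H3K4 methylation marks promoters and enhancers. KMT2A and KMT2B (MLL1 and MLL2) act with the scaffold menin at selected promoters, KMT2C and KMT2D (MLL3 and MLL4) place monomethylation at enhancers together with the H3K27 demethylase KDM6A, and SETD1A and SETD1B supply most of the trimethylation at active promoters. All 6 are very large proteins with the catalytic SET domain at the C-terminus, encoded at the 3′ end of the gene. In mRNA, m6A is known to favour long internal exons and the region around the stop codon. An hg19 annotation was not used here, so exons, introns and UTRs are not assigned to any peak.

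The 6 genes split into those with fewer and those with more peaks in the knockouts. KMT2A and KMT2C, the longest genes at 90.3 kb and 301 kb, held fewer peaks in every one of the 4 knockout libraries than in either control. KMT2B (20.9 kb) and SETD1B (28.7 kb) held more peaks in all 4 knockout libraries. SETD1A (27.4 kb) and KMT2D (36.4 kb) held more peaks in both CFL1-KO libraries, while their METTL3-KO libraries overlapped control in the number of peaks. Scaled to 100000 peaks of the library, both METTL3-KO libraries also lay above both control libraries in SETD1A (11.7 against 7.63 on the means) and KMT2D (18.6 against 16.6). With 2 libraries on each side, the smallest two-sided p of an exact permutation test is 0.333, so no gene could pass a test and these are descriptions.

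Such separation was common across the genome. Of 30-kb windows with a mean of at least 5 peaks per library, both CFL1-KO libraries lay below both control libraries in 38.7% and above them in 30.6%. For the METTL3-KO these shares were 48% and 18.3%. Against them, the CFL1-KO was lower in 2 of 6 genes and higher in 4, and the METTL3-KO was lower in 2 and higher in 2. The windows are not gene-sized, KMT2C being far longer.

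**Figure D1:**
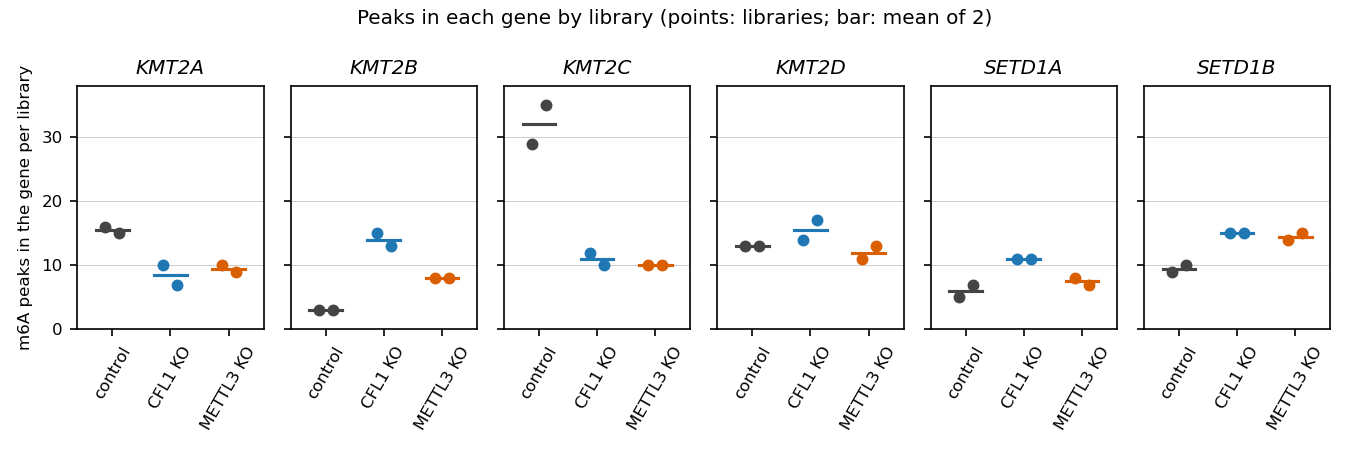
Number of called m6A peaks (vertical axis) in each gene for the 2 libraries of control, CFL1-KO and METTL3-KO; points are libraries and bars the means of 2. KMT2A and KMT2C sit higher in control (15 to 16 and 29 to 35 peaks), KMT2B and SETD1B higher in the knockouts (8 to 15 and 14 to 15 peaks).

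Summed over the 6 genes these opposite differences nearly cancelled in CFL1-KO. Control 1 and 2 held 75 and 83 peaks, CFL1-KO 3 and 5 held 77 and 73, and METTL3-KO 3 and 5 held 61 and 62. CFL1-KO libraries thus lay below control 2 and overlapped the control range, with means of 79 ± 5.66 in control and 75 ± 2.83 in CFL1-KO (SD, n = 2, exact permutation p = 0.667, two-sided). METTL3-KO libraries averaged 61.5 ± 0.707 and lay below both control libraries (exact permutation p = 0.333, the smallest possible). This order depended on weak peaks. At a −log10 q of at least 10, the genes held 48 and 44 peaks in control, 67 and 61 in CFL1-KO and 53 and 54 in METTL3-KO, so both knockouts then lay above control. Scaled to 100000 peaks per library, the deposited lists gave 101 ± 5.52 in control, 108 ± 3 in CFL1-KO and 95.5 ± 0.048 in METTL3-KO.

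The bases covered by peaks showed how wide the calls were. Peaks covered 47.9 and 50.2 kb of the 6 genes in control 1 and 2, 64.1 and 60.3 kb in CFL1-KO 3 and 5, and 50 and 49.9 kb in METTL3-KO 3 and 5. Covered length was therefore above control in both CFL1-KO libraries and within the control range in both METTL3-KO libraries. By gene, KMT2D covered 10.5 and 10.6 kb in control against 16.9 and 16 kb in CFL1-KO and 11.3 and 12.2 kb in METTL3-KO.

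Where peaks of any library overlapped they were joined into a site, which gave 126 sites in the 6 genes and 174376 in all. Of the member sites, 34 (27%) were called in all 6 libraries, against 10.8% of all sites. Another 20 (15.9%) were called in both control libraries and no knockout library (13.3% of all sites), and 9 (7.14%) in all 4 knockout libraries and no control library (3.63% of all sites). Pooled, the shares found in all 6 libraries and in all 4 knockout libraries alone were thus larger in these genes than over the genome, though KMT2C held 0 of the latter. A joined site need not have the same summit in each library. With summits required within 100 bases, 10 sites were left in all 6 libraries, and with a fold of at least 4 there were 17. The genome share is given only for sites as joined here. The share found in both control libraries alone was close to the genome share. Of these 20 sites, KMT2C held 12, KMT2A 5, KMT2D 2 and SETD1A 1, while KMT2B and SETD1B held 0.

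Against the CFL1-KO alone, 21 of 118 member sites (17.8%) were called in both control libraries and in neither knockout library, against a genome share of 17.3%. In the opposite direction, 23 (19.5%) were called in both CFL1-KO libraries and in neither control library, against 9.88%. Against the METTL3-KO, 21 of 106 sites (19.8%) were present in both control libraries only, against 18.3%, and 11 (10.4%) in both METTL3-KO libraries only, against 10.5%. Pooled, the 6 genes exceeded the genome share for sites of the CFL1-KO absent from control, and lay near it for the other patterns. The genes were not alike in this. The CFL1-KO share was 60% in KMT2B, 41.7% in SETD1A, 26.7% in SETD1B and 23.5% in KMT2D, but 6.67% in KMT2A and 0% in KMT2C. KMT2B alone held 9 of the 23 sites. For sites of the METTL3-KO absent from control, the share ran from 2.27% in KMT2C to 44.4% in KMT2B. The pooled counts rest on the requirement of 2 libraries. With control 1 left out, so that control 2 sufficed, the control patterns came to 36 and 38 sites. With METTL3-KO 5 left out, the METTL3 pattern came to 17.

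The genes differed in which pattern they held. KMT2C and KMT2A held 31 and 8 of the 42 sites that were called only in control libraries, KMT2D held 2, SETD1A held 1, and KMT2B and SETD1B held 0. Of the 42 sites called only in knockout libraries, KMT2B held 13, KMT2D and SETD1A 7 each, KMT2C 6, SETD1B 5 and KMT2A 4. Each class thus made up 42 of 126 member sites. Over the genome, 56888 of 174376 sites were called only in control libraries and 79477 only in knockout libraries. The control-only share of these genes was therefore close to that of the genome, and the knockout-only share was lower. Sites seen only in control were weak, with a median −log10 q of 5.05 (5.04 over all such sites of the genome). Sites seen only in knockouts had a median of 26.8 (5.15 over the genome), and the 34 sites of all libraries 178 (101 over the genome). A −log10 q also depends on read depth, so values from different libraries are listed side by side and not read as a change.

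**Figure D2:**
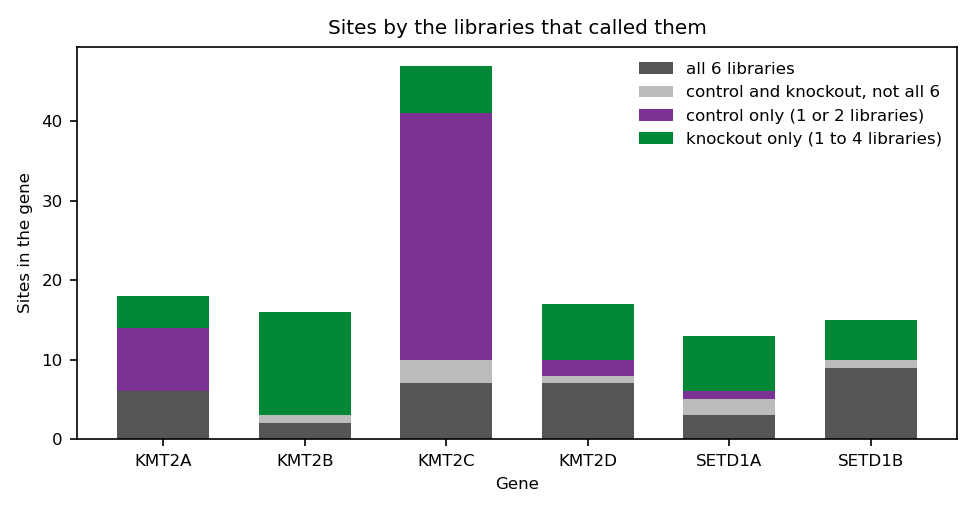
Number of sites per gene (vertical axis), stacked by the libraries that called them: all 6, control and knockout but not all 6, control only, and knockout only. KMT2C is dominated by 31 control-only sites and KMT2B by 13 knockout-only sites.

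**Figure D3:**
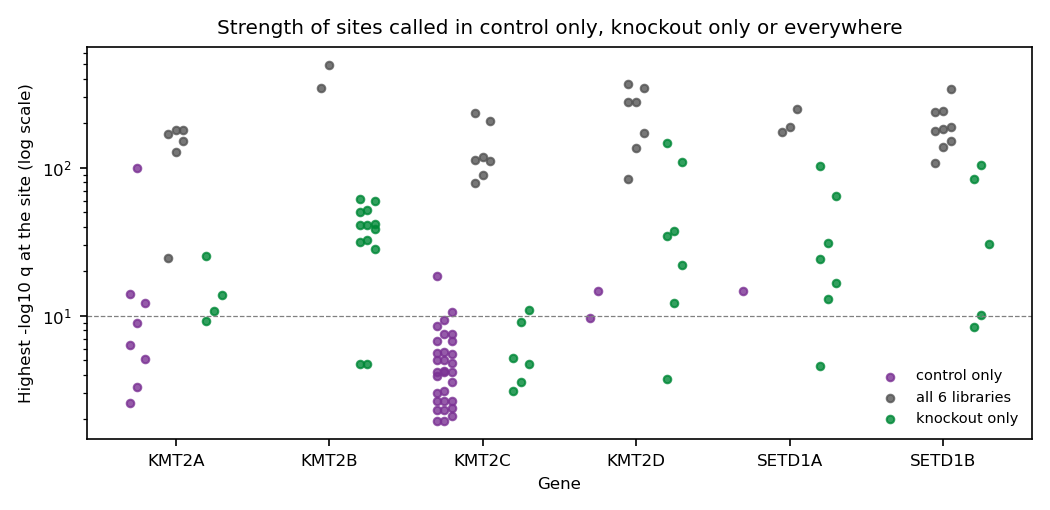
Highest −log10 q of each site (log axis) by gene, for sites called in control only, in all 6 libraries and in knockouts only; the dashed line marks a −log10 q of 10. Control-only sites lie mostly under the line and knockout-only sites of KMT2B, KMT2D, SETD1A and SETD1B mostly over it.

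KMT2A, the MLL1 gene that is broken by translocations in leukaemia, lies on chromosome 11 from 118307205 to 118397539 on the plus strand. It held 16 and 15 peaks in control 1 and 2, 10 and 7 in CFL1-KO 3 and 5, and 10 and 9 in METTL3-KO 3 and 5. Every knockout library lay below both control libraries, with means of 15.5 ± 0.707, 8.5 ± 2.12 and 9.5 ± 0.707 (SD, n = 2). Covered length differed less, at 9.48 and 9.19 kb in control against 7.13 and 8.07 kb in CFL1-KO and 8.56 and 8.26 kb in METTL3-KO. At a −log10 q of at least 10 the counts were 12 and 11, 9 and 6, and 9 and 8.

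Calls were joined or divided differently between libraries in KMT2A. The widest site of all 6 genes, at 118373000 to 118377266 (4267 bases, about 67.9 kb from the 5′ end), was cut into 4 peaks in each control library but was 1 peak in CFL1-KO 5 and in both METTL3-KO libraries. Peaks there covered 3351 and 3442 bases in control, 3775 and 4235 in CFL1-KO and 4242 and 4243 in METTL3-KO. CFL1-KO 3 had 3 peaks there, 1 of them 516 bases long. So this stretch was covered in all 6 libraries and held fewer peaks in the knockouts. At 118342284 to 118343832 the reverse was seen, with 1 peak in each control library and in CFL1-KO 5 but 2 in CFL1-KO 3 and in both METTL3-KO libraries.

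The KMT2A site with the strongest single peak spanned 118344011 to 118344975, 37.3 kb from the 5′ end. In its highest −log10 q over all libraries, this site was only just above the wide site. Its highest −log10 q was 94.3 and 112 in control, 94.1 and 100 in CFL1-KO and 163 and 180 in METTL3-KO. All 6 libraries called it. The strongest site that both control libraries and no knockout library called lay near the 3′ end, at 118394944 to 118395306, with a −log10 q of 62.2 and 99.2. This was the strongest control-only site of the 6 genes, and the sites on both sides of it were called in all 6 libraries. Of the other control-only sites, 4 had a −log10 q over 6 and lay 15, 20.9, 27.8 and 79.3 kb from the 5′ end. In the opposite direction, all 4 knockout libraries and no control library called 118320235 to 118320570 (−log10 q 2.99, 11.5, 13.9 and 3.49). TTC36-AS1 overlaps the 3′ part of KMT2A in the RefSeq gene table, and the lists carry no strand, so RNA of the 2 genes cannot be told apart there.

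KMT2C, the MLL3 gene and a frequent target of mutation in tumours, lies on chromosome 7 from 151832010 to 152133090 on the minus strand. It held 29 and 35 peaks in control, 12 and 10 in CFL1-KO and 10 and 10 in METTL3-KO. Control was higher by a factor of 2.91 and 3.2 on the means, with no overlap between groups. The difference lay in weak peaks of the 5′ part of the gene, taken as the first 50% of the interval. There control libraries held 17 and 23 peaks, CFL1-KO libraries 2 and 0, and METTL3-KO libraries 2 and 1. In the 3′ part the counts were close, at 12 and 12, 10 and 10, and 8 and 9. Of all KMT2C peaks, 18 and 26 had a −log10 q under 10 in control, against 3 and 1 in CFL1-KO and 3 and 3 in METTL3-KO. At 10 or more there were 11 and 9, 9 and 9, and 7 and 7, so the CFL1-KO then overlapped control. The split at 50% was chosen after the peaks were seen.

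Of the 31 sites in the 5′ part, 27 were called in control only, 12 of them in both control libraries, and 0 in all 6 libraries. The strongest control-only site was 152114920 to 152115351, 18 kb from the 5′ end, with a −log10 q of 18.5 in control 1 and 3.4 in control 2. The widest of this kind was 152087925 to 152089117 (1193 bases, −log10 q 10.6 and 7.74), chosen after its values were seen. Both METTL3-KO libraries alone called 151994957 to 151995292, at a −log10 q of 8.7 and 9.1. The 3′ part instead held 7 sites found in every library. Among them, 151856012 to 151856349, 277 kb from the 5′ end, was the strongest, with a −log10 q of 32.2 and 31.5 in control, 194 and 234 in CFL1-KO and 230 and 199 in METTL3-KO. Its fold enrichment, the authors' value, was 4.91 and 3.73 in control, 8.87 and 10.2 in CFL1-KO, and 12.1 and 11.5 in METTL3-KO. Both control libraries listed lower values there than any knockout library. Parts of KMT2C have near-identical copies elsewhere in the genome, and the pseudogene SEPTIN7P6 lies inside it, so the placement of reads in some of its peaks is uncertain and was not tested.

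**Figure D4:**
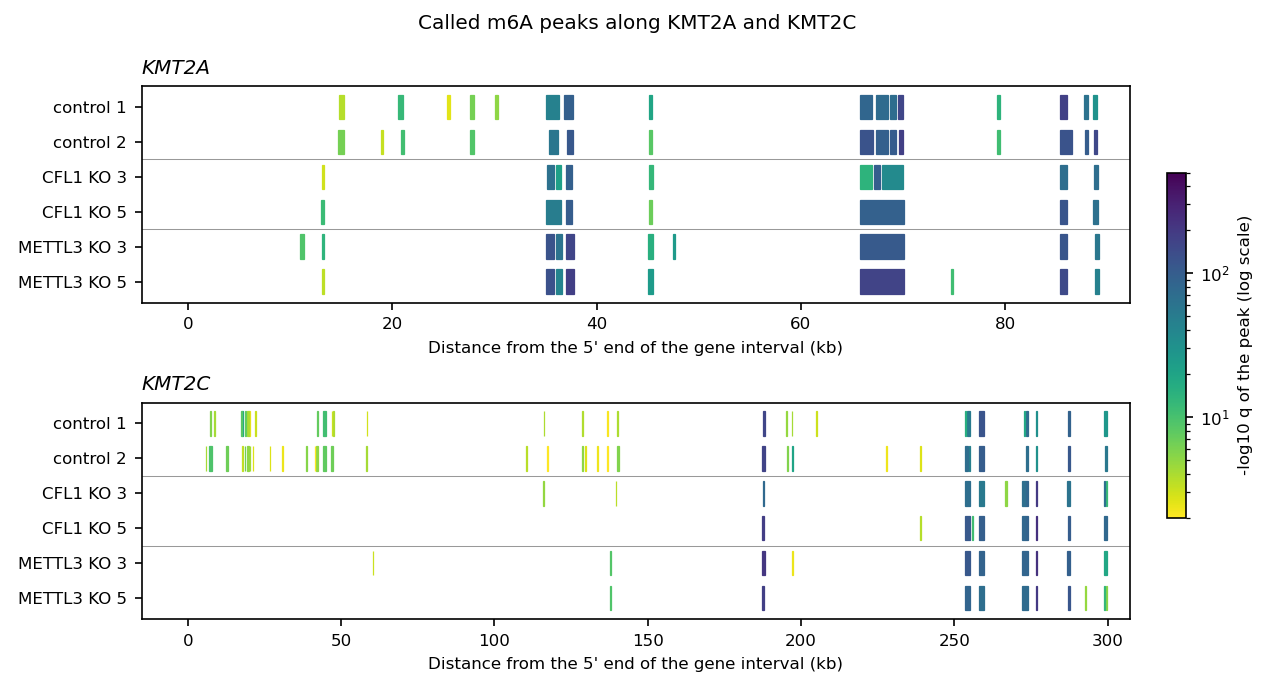
Called peaks along KMT2A and KMT2C, drawn to scale as distance from the 5′ end of the gene interval in kb, with 1 row per library and colour for −log10 q (log scale). Control rows of KMT2C show many weak peaks in the first 60.4 kb, where knockout rows are almost empty, while the strong sites beyond 254 kb appear in all rows.

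KMT2B, the MLL2 gene, lies on chromosome 19 from 36208921 to 36229779 on the plus strand and showed the largest relative difference of the 6 genes in CFL1-KO. It held 3 and 3 peaks in control, 15 and 13 in CFL1-KO 3 and 5, and 8 and 8 in METTL3-KO 3 and 5. The knockouts did not overlap control, and the means were 4.67 and 2.67 times the control mean. The CFL1-KO libraries also lay above both METTL3-KO libraries. Covered length was 3.29 and 3.39 kb in control, 10.3 and 8.56 kb in CFL1-KO, and 5.49 and 5.84 kb in METTL3-KO. Among peaks with a fold enrichment of at least 4, the differences from control shrank from 11 and 5 peaks to 1.5 and 0.5. Both knockouts then overlapped control, so the separation was lost.

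A pair of wide KMT2B sites was present in every library. The stronger spanned 36210569 to 36212678, 2.7 kb from the 5′ end, and had a −log10 q of 181 and 249 in control, 324 and 283 in CFL1-KO, and 478 and 496 in METTL3-KO. In METTL3-KO 5 only 0.117% of that library's peaks were stronger. The other spanned 36222095 to 36224733, and its −log10 q was 270 and 345 in control, 216 and 332 in CFL1-KO and 196 and 230 in METTL3-KO. Between and beyond them, 13 further sites were called only in knockout libraries, 3 of them in all 4. The strongest of these 3 was 36213792 to 36214370, with a −log10 q of 17.3 and 61.3 in CFL1-KO and 12.4 and 20.1 in METTL3-KO. The calls of the knockout groups differed at some sites of this gene. How common such differences are over the genome was not computed, so whether KMT2B is unusual in this cannot be told. Both CFL1-KO libraries and no METTL3-KO library called 5 sites, of which 36219887 to 36220192 was strongest (−log10 q 50 and 25.8). Among these 5, 36220573 to 36221231 was also called in both control libraries (−log10 q 9.64 and 8.51), so it was not a knockout-only site. Another site showed the opposite pattern, 36209029 to 36209268, 0.228 kb from the 5′ end (−log10 q 32.3 and 52 in METTL3-KO 3 and 5). IGFLR1 overlaps the very 3′ end of KMT2B in the RefSeq gene table, where RNA of both genes cannot be told apart.

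KMT2D, the MLL4 gene, lies on chromosome 12 from 49412758 to 49449107 on the minus strand. It held 13 and 13 peaks in control, 14 and 17 in CFL1-KO and 11 and 13 in METTL3-KO. The CFL1-KO lay above control by 1 to 4 peaks, while METTL3-KO 5 equalled control. The CFL1-KO separation was lost when the summit had to lie in the interval (a mean difference of 2 peaks, exact permutation p = 1, two-sided). Per 100000 peaks, METTL3-KO 3 and 5 (17.2 and 20) lay above control 1 and 2 (16.8 and 16.4), so scaling turned the mean difference from -1 peak to 2.06 per 100000. Without METTL3-KO 3, the difference from control was 0. More of the difference showed in where the peaks were. All 4 knockout libraries and no control library called 49421651 to 49422029, 27.3 kb from the 5′ end, with a −log10 q of 148 and 137 in CFL1-KO and 114 and 82.5 in METTL3-KO. This was the strongest site of the 6 genes that control lacked. The same pattern held at 49436962 to 49438442 (109, 94.1, 84.2 and 76.7), where peaks covered 1480 and 973 bases in CFL1-KO but 212 bases in each METTL3-KO library.

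The strongest KMT2D site, 49420007 to 49421288, was called everywhere, with a −log10 q of 172 and 167 in control, 368 and 318 in CFL1-KO, and 295 and 203 in METTL3-KO. Towards the 3′ end the order turned. At 49414315 to 49416076, 33.9 kb from the 5′ end, the −log10 q was 235 and 277 in control, 147 and 182 in CFL1-KO and 186 and 144 in METTL3-KO. At the 3′ end itself, 49412739 to 49413238 was called in both control libraries (14.8 and 5.92) and no knockout library. DDN-AS1 overlaps the 3′ end of KMT2D in the RefSeq gene table, so reads there could belong to either gene. At the opposite end, both CFL1-KO libraries alone called 49447842 to 49449312, which covers the 5′ end of the interval (34.6 and 25.3). RefSeq's newer gene model of KMT2D is 5467 bases longer than the interval used here, so that end need not be the gene's start.

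SETD1A lies on chromosome 16 from 30968615 to 30995981 on the plus strand. It held 5 and 7 peaks in control, 11 and 11 in CFL1-KO and 8 and 7 in METTL3-KO. The CFL1-KO was higher than control without overlap, at 1.83 times its mean. Among peaks with a fold enrichment of at least 4, the difference of 5 peaks became 1.5. The groups then overlapped (exact permutation p = 0.667, two-sided). METTL3-KO 5 equalled control 2 in peaks, with means of 7.5 ± 0.707 and 6 ± 1.41 (SD, n = 2, exact permutation p = 0.667, two-sided). Per 100000 peaks the METTL3-KO libraries did lie above control, at 12.5 and 10.8 against 6.44 and 8.81, as they did in covered length, at 6.13 and 5.71 kb against 3.8 and 4.86 kb. The strongest site, 30975756 to 30978380, had a −log10 q of 66.4 and 30.1 in control, 214 and 251 in CFL1-KO, and 165 and 154 in METTL3-KO. Downstream of it, all 4 knockout libraries and no control library called 30980439 to 30980956 (97.7, 103, 44.1 and 54.2). The control-only site was 30986850 to 30987310 (14.8 and 6.5). Both CFL1-KO libraries alone called 30978636 to 30978864 (23.3 and 24.1) and 30987716 to 30988144 (13 and 2.14).

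SETD1B lies on chromosome 12 from 122241900 to 122270600 on the plus strand. It held 9 and 10 peaks in control, 15 and 15 in CFL1-KO, and 14 and 15 in METTL3-KO. Both knockouts lay above control without overlap, at 1.58 and 1.53 times its mean. It had the most shared calls, as 9 of its 15 sites were found in all 6 libraries. They include 122240585 to 122242162, where the control peaks end before the interval. Its strongest site, 122247333 to 122248906, 6.22 kb from the 5′ end, had a −log10 q of 301 and 339 in control, 245 and 283 in CFL1-KO and 209 and 275 in METTL3-KO. The fold enrichment at that site was 22.3 and 19.9 in control, the highest of any member peak, against 8.27 and 8.26 in CFL1-KO and 9.32 and 15.9 in METTL3-KO. Control libraries thus listed the higher values at the strongest site, where no library lacked a peak.

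The sites that control lacked in SETD1B lay mainly at its 5′ end. All 4 knockout libraries and no control library called 122242447 to 122242725 (−log10 q 32.3, 105, 36 and 49.8) and 122243627 to 122243983 (57.3, 84.3, 16.4 and 14.8). Next to them, 122240585 to 122242162 crossed the 5′ end of the interval. There the knockout libraries listed 115, 176, 113 and 93 and the control libraries 4.54 and 3.63, the control peaks ending before the interval. Both CFL1-KO libraries alone called 122267042 to 122267327 (30.4 and 15.6) and 122249495 to 122249950 (10.2 and 2.58). In RefSeq's newer gene table the SETD1B model is 13801 bases longer than the interval, and it overlaps LINC01089 and RHOF. RNA of these neighbours cannot be told apart from SETD1B RNA where they overlap.

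**Figure D5:**
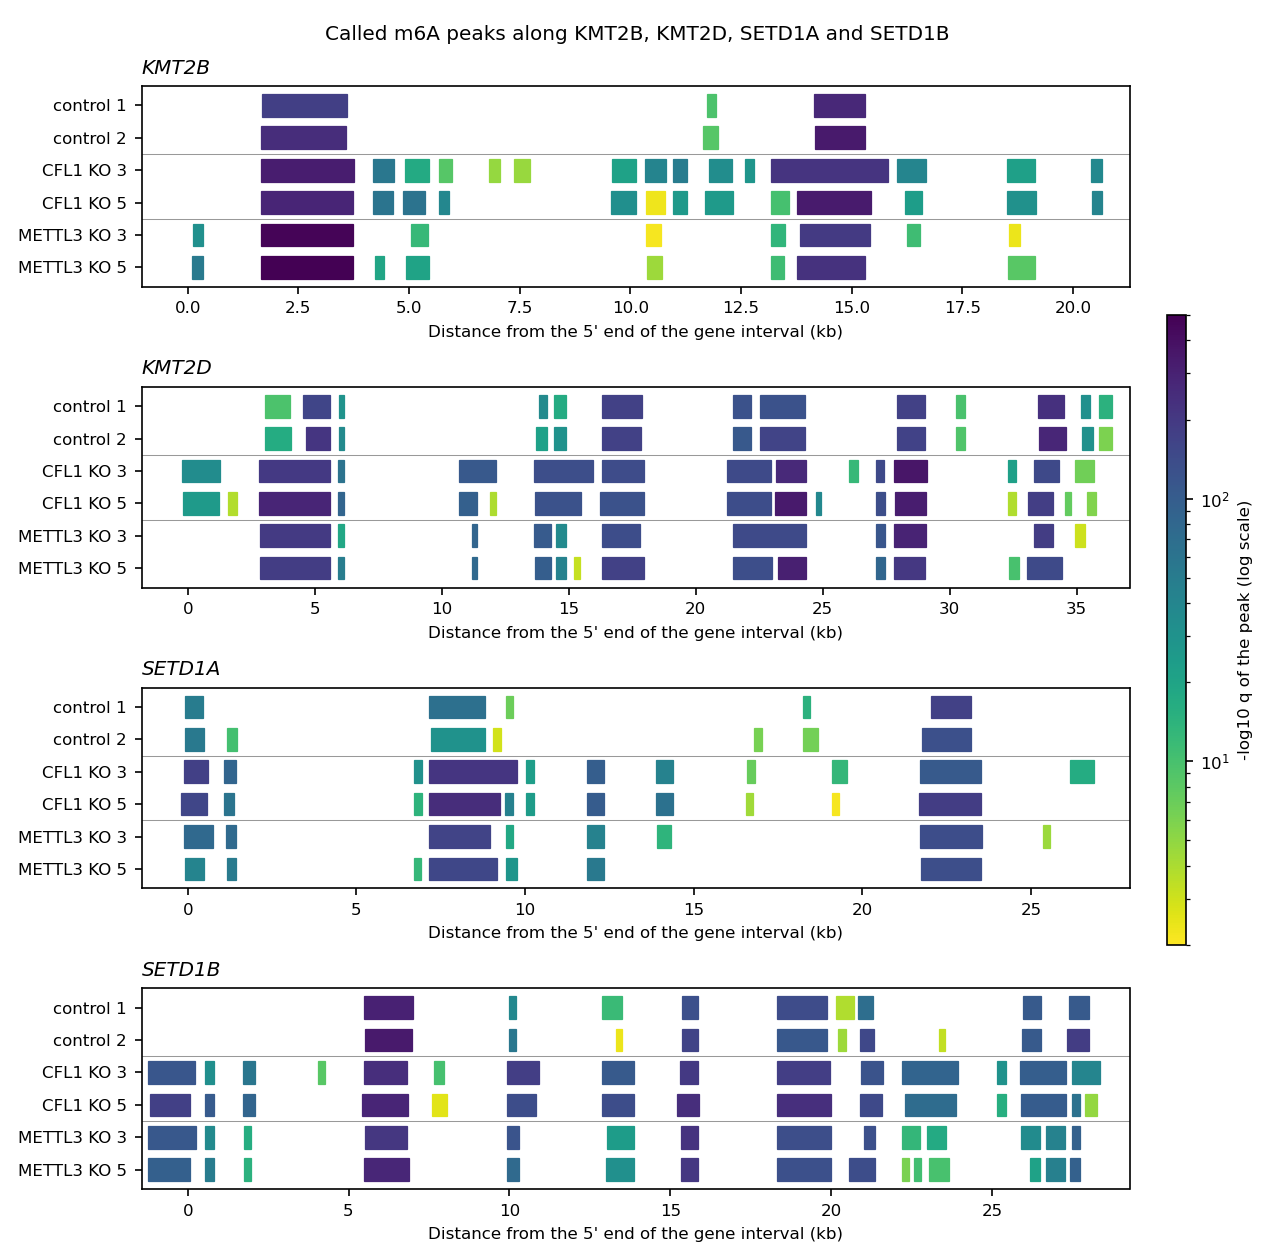
Called peaks along KMT2B, KMT2D, SETD1A and SETD1B, drawn as distance from the 5′ end of the gene interval in kb, with 1 row per library and colour for −log10 q (log scale). KMT2B shows 3 peaks in each control row against 13 to 15 in CFL1-KO rows. Peaks up to 1.91 kb from the 5′ end of SETD1B appear in the knockout rows only. Control peaks of the site that crosses this end were called but lie before the interval and are not drawn.

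At the 5′ end the genes fell into different classes. KMT2A and KMT2C had no site within 1000 bases of the end of their intervals. SETD1A had a site over it in all 6 libraries, 30968411 to 30969353, with a −log10 q of 49.8 and 53.9 in control, 175 and 158 in CFL1-KO, and 77.9 and 41.8 in METTL3-KO. KMT2B had the METTL3-KO site described above. SETD1B also had a site over its interval end that all 6 libraries called, with the control peaks ending before the interval. KMT2D had a site over its end in both CFL1-KO libraries only. Of the 6 genes, 5 had a promoter in the RefSeq table. The 250 bases before the start of 4 of them (RefSeq, GRCh38.p14) are printed to show what sequence lies there in a gene with a site over its end in every library (SETD1A), one with a site beside it in METTL3-KO only (KMT2B), and those with none (KMT2A, KMT2C). KMT2D was left out because its RefSeq model is longer than the interval. The RefSeq length of SETD1A minus that of its interval is -456 bases, so the RefSeq start need not match the interval end. Each is given 5′ to 3′ on the strand of the gene, with CG dinucleotides in capitals, and peak positions on hg19 were not transferred to it.
SETD1A, chr16:30957504-30957753, plus strand: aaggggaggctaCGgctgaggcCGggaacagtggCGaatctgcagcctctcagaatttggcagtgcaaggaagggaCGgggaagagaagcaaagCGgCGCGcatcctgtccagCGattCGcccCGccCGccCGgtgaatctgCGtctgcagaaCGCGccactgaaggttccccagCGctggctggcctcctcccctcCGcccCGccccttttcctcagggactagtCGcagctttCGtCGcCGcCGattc
KMT2B, chr19:35717753-35718002, plus strand: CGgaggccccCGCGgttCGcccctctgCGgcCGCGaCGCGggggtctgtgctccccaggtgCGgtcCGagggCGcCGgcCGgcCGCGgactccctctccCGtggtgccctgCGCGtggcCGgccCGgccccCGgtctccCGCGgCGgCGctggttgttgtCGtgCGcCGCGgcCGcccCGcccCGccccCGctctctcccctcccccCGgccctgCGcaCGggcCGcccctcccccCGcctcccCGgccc
KMT2A, chr11:118436242-118436491, plus strand: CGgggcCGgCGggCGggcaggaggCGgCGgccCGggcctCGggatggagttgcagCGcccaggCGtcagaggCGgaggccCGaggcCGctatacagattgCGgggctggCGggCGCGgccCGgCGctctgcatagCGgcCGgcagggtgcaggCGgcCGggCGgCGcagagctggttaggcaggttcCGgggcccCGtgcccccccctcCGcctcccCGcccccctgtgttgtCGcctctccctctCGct
KMT2C, chr7:152436004-152436253, minus strand: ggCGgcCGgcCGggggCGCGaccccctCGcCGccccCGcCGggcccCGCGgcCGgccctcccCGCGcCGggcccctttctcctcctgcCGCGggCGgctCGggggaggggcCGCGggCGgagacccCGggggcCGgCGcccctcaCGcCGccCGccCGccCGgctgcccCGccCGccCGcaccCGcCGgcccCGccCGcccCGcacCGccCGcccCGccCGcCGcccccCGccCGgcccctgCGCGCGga
The SETD1A stretch held 23 CG and 65.2% G or C, KMT2B 40 and 84.4%, KMT2A 31 and 78.4%, and KMT2C 48 and 92%. Over 35116 RefSeq promoters the medians were 11 CG and 58%, and 74.2% of promoters held fewer CG than SETD1A, against 97.8%, 89.1% and 99.7% for the other 3 in that order. SETD1A had the fewest CG of the 4. SETD1B, whose 5′ site was also called in all 6 libraries, had no promoter in the RefSeq table. A link between CG and sites was not tested.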

How the data were processed

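Antibody-bound RNA fragments and input RNA of PANC-1 cells were sequenced, and 3 peak lists stand behind 12 of the 32 samples. The other 20 samples (nuclear RNA and cytochalasin D) were not analysed here. Per the submitters' processing notes, STAR, MACS2 and bedtools were used on hg19. The sources used here do not give settings, or whether input served as background. The deposited values per peak are a fold enrichment (a ratio), a −log10 q and a summit, all made by the authors. The other 2 value columns (score and −log10 p) played no part. Read depth is unknown. Per the peak names, each list joins 2 libraries called separately, whose numbers are not the labels' replicate numbers for the knockouts, and whose knockout names carry the letters si.

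Groups follow the sample titles, since control antibody samples carry none as treatment. From the lists, peaks per gene and library, covered bases and sites (peaks of any library chained where they overlap by at least 1 base) were computed with Python 3.11.15 and pandas 2.3.3, and the code was tested on simulated data. Differences between libraries were tested by exact permutation, two-sided. Group values are means with SD over 2 libraries. Named sites are, per gene, the strongest, the strongest in both control and no knockout libraries, the strongest in all 4 knockout and no control libraries, and up to 2 on which the knockouts differ 2 against 0, with the widest site overall. Genome shares were not computed for sites on which the knockouts differ from each other, in any gene. Members, lists and rules were chosen with earlier results of these data known. Other COMPASS subunits had been listed for comparison and were not analysed here, as they need hg19 gene intervals. Promoters and neighbouring genes come from RefSeq (GRCh38.p14), where all 6 genes were found by symbol. Alternatives were thresholds on −log10 q (5, 10) and fold (4), the summit as position, joining within 100 bases, and leaving out each library.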

Additional observations from a re-analysis of the deposited data

Results flagged for a closer look

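The sum over the 6 genes, scaled to 100000 peaks per library, lay above both control libraries in both CFL1 knockout libraries (106 and 110 against 96.6 and 104) and below them in both METTL3 knockout libraries (95.5 and 95.5). The CFL1 knockout mean exceeded the METTL3 knockout mean by 12.5. With 1 library left out, the CFL1 knockout difference from control ran from 3.55 (without control 1) to 11.3 (without control 2), and the METTL3 knockout difference from -8.96 (without control 1) to -1.16 (without control 2), against 7.45 and -5.06 with all libraries. When summits had to lie in the gene, the CFL1 knockout overlapped control (5.32, exact permutation p = 0.667, two-sided). Whether the knockouts differ from each other was not tested. The same sum without scaling did not separate the CFL1 knockout from control.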

How the results depend on the processing

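Of 194 alternative values, 171 kept the direction (differences) or lay within 1.5 times (site counts), 7 reversed and 16 moved. Of the 171, 33 were differences that changed by over 1.5 times in size. Among single genes only KMT2D reversed. A kept direction need not keep the groups apart. With a fold of at least 4, KMT2B in both knockouts, SETD1A in CFL1 and KMT2A in METTL3 kept their direction but overlapped control. KMT2C in CFL1 did so at a −log10 q of 10 or more. When a −log10 q of 5 or more was required, the sum over the 6 genes (CFL1 knockout minus control, -4 as reported) became 7.5, and the sum per 100000 peaks (METTL3 knockout minus control, -5.06 as reported) became 5.74. At that threshold the sites of both control libraries came to 11 without a CFL1 and 13 without a METTL3 knockout peak (21 each as reported). At 10 or more the sums became 18 (CFL1) and 7.5 (METTL3, -17.5 as reported), the METTL3 sum per 100000 became 19.9, the KMT2D difference in METTL3 became 0 (-1 as reported), and both control patterns came to 4 sites. With a fold of at least 4, the CFL1 sum became 0 and per 100000 -10.8 (7.45 as reported), KMT2D in METTL3 became 4, the control patterns 9 and 8 sites, the CFL1 pattern 7 (23 as reported), and sites of all 6 libraries 17 (34 as reported). Requiring summits within 100 bases left 10 sites in all 6 libraries. Leaving out 1 library moved the CFL1 sum between -8 and 0 (0 without control 2), KMT2D in METTL3 between -2 and 0 (0 without METTL3 knockout 3), the control patterns between 21 and 36 and between 22 and 38 (highest without control 1), and the METTL3 pattern between 11 and 17 (highest without METTL3 knockout 5). The cause of these moves was not tested. No paired analysis was possible because the numbers in the knockout peak names differ from the replicate numbers in the labels. Read depth is unknown, so a missing peak does not show missing methylation.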
